A study of Mus musculus with 6 samples.

Results

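Toll-like receptors that sense microbial products, the co-receptors that present ligand to them and the adaptors that carry their signal were examined in MSR1 KO and MSR1 WT macrophages. The 10 genes were taken by symbol from the 52550 genes of the deposited table: Tlr1, Tlr2, Tlr4, Tlr6, Tlr8, Tlr13, Cd14, Ly96, Myd88 and Ticam1. All 10 were among the 16402 genes with enough counts to be tested. The working name for the group was surface Toll-like receptors and co-receptors, but the word surface does not hold for every gene, since Tlr8 and Tlr13 encode endosomal receptors for RNA, and Myd88 and Ticam1 encode adaptors in the cytosol. RNA-seq was performed on 3 MSR1 KO and 3 MSR1 WT libraries of primary bone marrow-derived macrophages (BMDMs) from mice on a C57BL/6 background. The marrow cells of both genotypes had been grown for 7 days with 25 ng/ml M-CSF, a growth factor that drives macrophage differentiation, and had then shared medium with bone marrow stem cells (BMSCs) across a transwell membrane for 48 h. No microbial ligand is named for either group, and the knockout is carried in all cells of the mouse and not in macrophages alone. There was no group without BMSCs, so the values describe the genotypes in co-culture only.

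Toll-like receptors detect conserved microbial molecules. TLR2 pairs with TLR1 or TLR6 to bind bacterial lipopeptides, whereas TLR4 binds lipopolysaccharide together with MD-2, the product of Ly96, after CD14 has passed the ligand on. Most of these receptors signal through MyD88 to NF-κB and inflammatory cytokines, and TLR4 also uses TRIF, the product of Ticam1, to reach interferon regulatory factors and type I interferon. Msr1 encodes scavenger receptor class A, another macrophage receptor for modified lipoproteins and bacterial surfaces.

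Total counts ranged from 36143518 to 47417448 per library. Counts of Msr1 were 2118, 1825 and 2000 under MSR1 KO against 7543, 9163 and 9219 under MSR1 WT (log2 fold change -2.02, edgeR adjusted p = 0.00124), so the labels matched the targeted gene although reads on it remained. Summed macrophage markers lay between 27578 and 28992 CPM (counts scaled to the same library size) in MSR1 KO and between 27634 and 30481 in MSR1 WT. Lyz2 alone had 12643 to 13777 CPM in MSR1 KO and 13261 to 15865 CPM in MSR1 WT, so the sum hides other markers. Of the 11 markers, 5 lay above MSR1 WT in every MSR1 KO library and 1 lay below. The 2 called by edgeR, named for that reason, were Fcgr1 (log2 fold change 1.14, adjusted p = 0.0182) and Mrc1 (-0.387, adjusted p = 0.0369). Summed stromal cell markers lay between 1212 and 1587 CPM in MSR1 KO and between 1567 and 2024 in MSR1 WT. Neutrophil markers lay between 656 and 1067 CPM against 427 and 813, and monocyte markers between 872 and 1153 against 1039 and 1165. Dendritic cell markers lay between 4.01 and 5.02 CPM in MSR1 KO and at 4.002, 1.83 and 3.75 CPM in MSR1 WT. The lowest MSR1 KO sum, 4.009, barely exceeded the highest MSR1 WT sum, 4.002, and the counts behind these sums are low. Of the 7 dendritic markers tested, 0 were called at an adjusted p under 0.05. Their log2 fold change was positive for 4 and negative for 3. T cell and erythroid markers summed to at most 2.23 CPM in any library, and B cell markers to at most 22.9 CPM. In bulk RNA, fewer cells of a type and less RNA per cell cannot be told apart.

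Short stretches of sequence bear on how some of these genes were counted and are shown for that reason. Tlr1 and Tlr6 are neighbours on the minus strand of chromosome 5 and share a coding stretch of 229 identical bases, at chr5:64925537-64925765 in Tlr1 and at chr5:64953828-64954056 in Tlr6 (GRCm38). A read that falls wholly inside this run cannot be given to either gene by its bases.

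Tlr1 and Tlr6, shared run: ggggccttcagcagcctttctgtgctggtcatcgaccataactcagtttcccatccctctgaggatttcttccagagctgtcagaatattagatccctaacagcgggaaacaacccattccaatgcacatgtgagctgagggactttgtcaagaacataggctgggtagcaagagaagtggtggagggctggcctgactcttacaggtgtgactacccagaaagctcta

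Of all 100-base windows of the transcripts of each gene, 7.89% in Tlr1 and 7.09% in Tlr6 occurred in the other gene. Myd88 shares 290 of its exon bases (11.3%) with Acaa1a on the opposite strand. How the counting treated strand and reads with several matches is not given in the sources used here. No other gene of the group shared a 100-base window with another gene.

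Promoter sequences of RefSeq (GRCm38.p6) were found for 7 of the 10 genes, 9 sequences in all, while Tlr4, Ly96 and Cd14 had no entry. The 250 bases before each start were searched on both strands for 3 motifs. An ISRE-type motif, the element bound by interferon-activated factors, was written as GAAA, any 2 bases and GAAA, and 2.98% of 32851 promoters held it. A κB-type motif was written as GGGA, any 4 bases and CC (17.6% of promoters), and a PU.1-type motif, named for a factor of myeloid cells, as GAGGAAG (10.6%). The ISRE-type motif occurred in Myd88 and Tlr6, the κB-type motif in Tlr2 and the PU.1-type motif in Tlr1, Tlr13 and Ticam1. Windows around the ISRE-type and κB-type matches are printed on the strand of the gene with the matched bases in capitals, from chr9:119340042-119340118 for Myd88, chr5:64959227-64959342 for 1 of the 2 starts of Tlr6 and chr3:83841768-83841840 for Tlr2, all on the minus strand. The 2 matches in Tlr6 overlap and read on the opposite strand, and the match in Tlr2 reads the same on both strands.

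Myd88: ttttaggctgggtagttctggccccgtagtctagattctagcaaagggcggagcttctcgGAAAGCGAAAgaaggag
Tlr6: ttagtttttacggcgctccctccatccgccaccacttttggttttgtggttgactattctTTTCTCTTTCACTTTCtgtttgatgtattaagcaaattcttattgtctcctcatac
Tlr2: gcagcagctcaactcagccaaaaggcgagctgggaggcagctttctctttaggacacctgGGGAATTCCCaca

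These matches describe letters in a window and do not show binding. With the last base of the ISRE-type motif left out, a form tried after the matches had been seen, 3 genes of the group held it, Tlr8 being added, and so did 7.13% of all promoters.

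To ask which of these genes macrophages in co-culture expressed most, levels were compared per kilobase of exon (RPKM). Cd14, the co-receptor that hands on lipopolysaccharide, and Tlr13, a sensor of bacterial ribosomal RNA, were highest, at 165 and 160 RPKM on average over the 6 libraries. Tlr8 followed at 105 RPKM, Tlr2 at 49.9, Myd88 at 32.9 and Tlr1 at 27.9. Ly96, Ticam1, Tlr4 and Tlr6 were lowest, at 14.3, 12.5, 11.8 and 7.42 RPKM. The place of Tlr4 among these differed by genotype. It averaged 17.7 RPKM in MSR1 WT, above Ly96 at 13.8, and 5.95 RPKM in MSR1 KO, below Tlr6 at 6.47. Among neighbours in this order, Cd14 and Tlr13 overlapped over the libraries, as did Myd88 and Tlr1, Ly96 and Ticam1, Ticam1 and Tlr4, and Tlr4 and Tlr6. Tlr8 lay apart from both of its neighbours, Tlr2 lay apart from both of its own, and Tlr1 lay apart from Ly96.

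**Figure D1:**
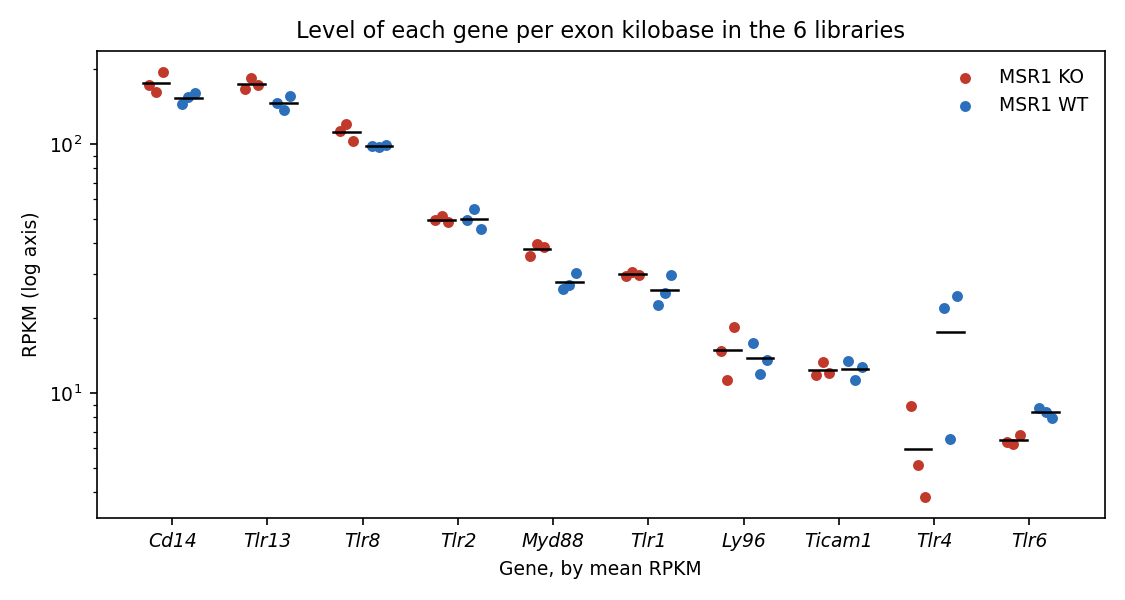
RPKM on a log axis for each of the 10 genes, ordered by mean level, with 1 point per library (red, MSR1 KO; blue, MSR1 WT) and a black line at the mean of each genotype. Tlr4 is the most widely spread gene, from 3.84 to 24.4 RPKM, while Tlr8 in MSR1 WT spans only 97.8 to 98.9.

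The comparison of MSR1 KO with MSR1 WT called 1 of the 10 genes higher at an adjusted p under 0.05, Myd88, where 2.25% of all tested genes were called higher. None was called lower by edgeR's quasi-likelihood test, where 2.66% of all tested genes were. At an unadjusted p under 0.05, 4 genes of the group were higher and 2 were lower. The share of all tested genes was not computed at that threshold, so these counts have no background beside them. After adjustment DESeq2 called 1 gene of the group lower, Tlr6, and 850 of all 16402 tested genes. By the study's definition, a fold change above 1.5 with an unadjusted p under 0.05, 1 gene was lower, Tlr4, against 5.05% of tested genes, and 0 were higher by edgeR or DESeq2, against 3.59%. All MSR1 KO libraries lay above all MSR1 WT libraries for Tlr8, Tlr13, Cd14 and Myd88, where 12.1% of tested genes did so, and all lay below for Tlr6, where 13.4% did so. The median log2 fold change of the 10 genes was 0.15, and that of all tested genes was -0.0023.

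**Figure D2:**
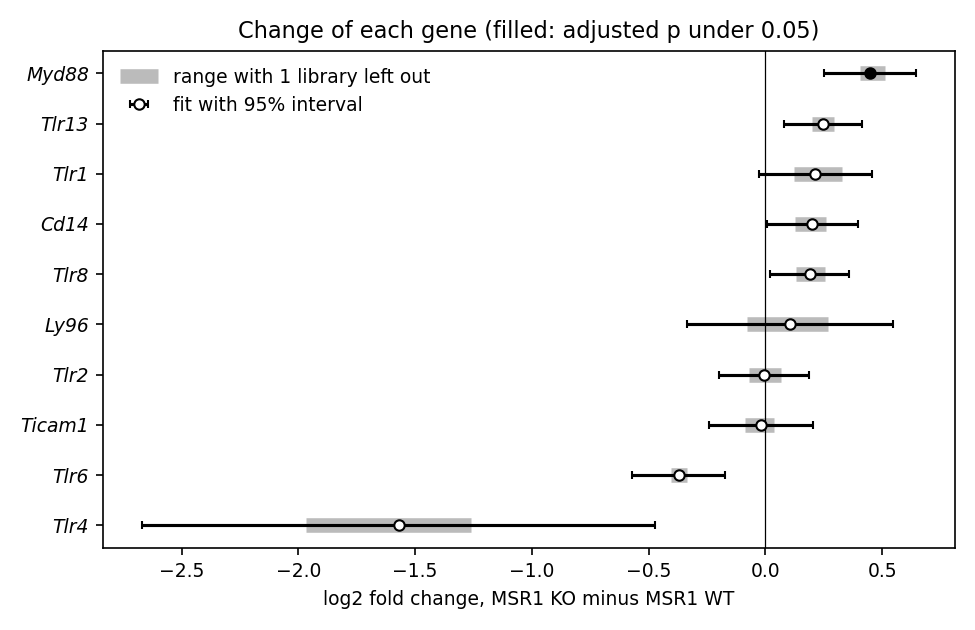
Log2 fold change of each gene, MSR1 KO minus MSR1 WT (points, with 95% intervals as lines), and the range of that value with each library left out in turn (grey bars); a filled point has an adjusted p under 0.05. Only Myd88 is filled, and Tlr4 has the widest interval, from -2.67 to -0.47.

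Among the lipopeptide receptors, Tlr2, the shared partner, did not pass the test. It had 149, 154 and 146 CPM in MSR1 KO and 149, 166 and 137 CPM in MSR1 WT, so the MSR1 KO libraries lay inside the range of the MSR1 WT libraries. Its fold was 0.995 with a 95% interval from 0.871 to 1.14 (adjusted p = 0.973). Tlr1, which widens TLR2 recognition to triacylated lipopeptides, had 98.4, 103 and 99.5 CPM in MSR1 KO and 75.3, 84.3 and 99.9 CPM in MSR1 WT. In MSR1 WT, replicate 3 reached the MSR1 KO level and the other two lay below it (log2 fold change 0.21 ± 0.11 SE, adjusted p = 0.326).

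Tlr6, which pairs with TLR2 for diacylated lipopeptides, had 23.8, 23.2 and 25.4 CPM in MSR1 KO and 32.6, 31.3 and 29.6 CPM in MSR1 WT. The highest MSR1 KO value lay under the lowest MSR1 WT value. The log2 fold change was -0.37 ± 0.087 (SE), or 0.774-fold with an interval from 0.674 to 0.888, and the adjusted p of 0.0511 missed the threshold narrowly. Over 12 alternatives the adjusted p ranged from 0.0131 to 0.175 and was under 0.05 in 3 of them, DESeq2's test, library size alone as scaling and a stricter count filter.

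Since Tlr1 and Tlr6 use the same partner, their counts were also set against each other within each library, a ratio that does not depend on how libraries are scaled. Per exon length, Tlr1 was 4.61, 4.93 and 4.37 times Tlr6 in MSR1 KO and from 2.57 to 3.75 times Tlr6 in MSR1 WT. The groups did not overlap, and the log2 ratio was 0.59 higher in MSR1 KO (two-sided exact permutation p = 0.1, the smallest p that 3 against 3 libraries allow). The log2 ratio of Tlr6 over Tlr2 differed by -0.37 (MSR1 KO minus MSR1 WT), again without overlap (exact p = 0.1), and Tlr1 over Tlr2 was 0.23 higher with overlap (exact p = 0.4). Adjusted over the 7 ratios computed, the lowest p was 0.233.

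**Figure D3:**
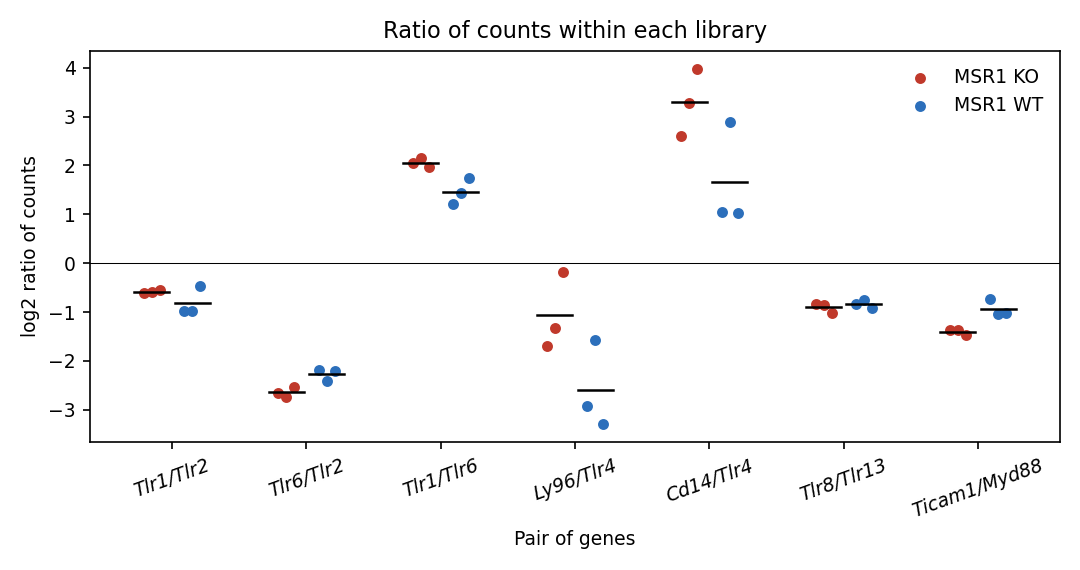
Log2 ratio of the counts of 7 pairs of genes within each library (red, MSR1 KO; blue, MSR1 WT; black line, mean of 3 libraries). The genotypes do not overlap for Tlr6/Tlr2, Tlr1/Tlr6 and Ticam1/Myd88, and the second MSR1 WT library lies among the MSR1 KO libraries for both ratios over Tlr4.

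Tlr4, the lipopolysaccharide receptor, showed the largest difference of the group and also the largest spread. It had 1764, 1142 and 992 counts in MSR1 KO and 5037, 1720 and 5610 counts in MSR1 WT, or 49.1, 28.7 and 21.3 CPM against 122, 36.3 and 136 CPM. MSR1 WT replicates 1 and 3 were high, whereas replicate 2 lay below the first MSR1 KO library, at 0.738 of its level, so the groups overlapped.

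The log2 fold change of Tlr4 was -1.57 ± 0.48 (SE), or 0.337-fold with an interval from 0.157 to 0.721, and the unadjusted p of 0.0107 became 0.115 after adjustment over all genes. Without the second MSR1 WT library the log2 fold change was -1.97 and the adjusted p was 0.0366, the only one of 12 alternatives under 0.05, over which it ranged up to 0.304. The highest MSR1 WT library held 3.75 times the lowest, against 1.01 to 1.33 times for the other 9 genes. Of the 3311 tested genes with at least the same mean CPM, 10 had as large a ratio between MSR1 WT libraries.

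The 5 tested genes whose centred log2 CPM over the 6 libraries lay closest to that of Tlr4 were Colec10, Foxp2, Gm10327, Epha7 and Hoxc10, with root mean square differences from 0.28 to 0.42. All 5 had low counts, at most 262 in any library, and Colec10 had as few as 4. Stromal cell markers summed to 1212, 1587 and 1221 CPM in MSR1 KO and to 2024, 1567 and 1828 CPM in MSR1 WT, where the second MSR1 WT library was again the lowest of its genotype. Of the 12 stromal markers, 11 had their lowest MSR1 WT value in replicate 2, as Tlr4 did. Within MSR1 KO they differed from Tlr4, which was highest in replicate 1, since replicate 2 was the highest for 6 of the markers, replicate 3 for 4 and replicate 1 for 2. Col1a1, a collagen gene, had 429, 591 and 452 CPM in MSR1 KO and 663, 510.3 and 584 CPM in MSR1 WT. Of the 12 stromal markers, 3 were lower and 0 were higher in MSR1 KO at an adjusted p under 0.05 by edgeR, and 4 were lower and 1 was higher by the study's definition. Their part in the values of Tlr4 was not tested.

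**Figure D4:**
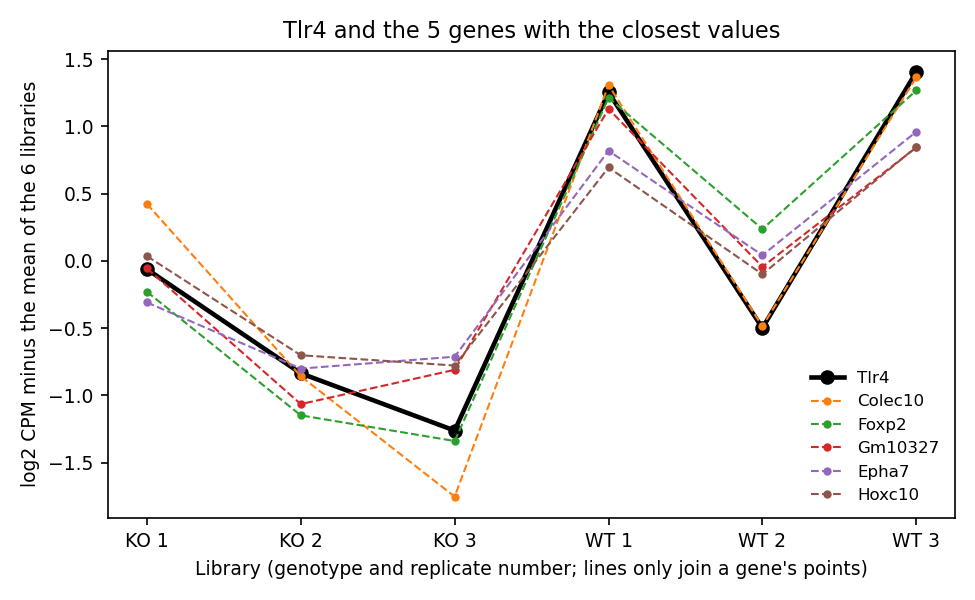
Log2 CPM minus the mean of the 6 libraries (vertical axis) in each library (horizontal axis) for Tlr4 (black) and the 5 genes closest to it (dashed). MSR1 WT replicates 1 and 3 are high for each gene, and the second MSR1 WT library of Tlr4 lies at -0.50, below the first MSR1 KO library at -0.06.

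The highest MSR1 WT library held 1.10 times the lowest for Cd14 and 1.33 times for Ly96, the co-receptors of TLR4. Cd14 had 299, 279 and 338 CPM in MSR1 KO and 252, 267 and 278 CPM in MSR1 WT, each MSR1 KO library lying above each MSR1 WT library by a small margin. Its fold was 1.15 with an interval from 1.00 to 1.32 (adjusted p = 0.251). Ly96, whose protein MD-2 forms the lipid pocket of the receptor, had 15.1, 11.5 and 18.8 CPM in MSR1 KO and 16.2, 12.2 and 13.9 CPM in MSR1 WT. The groups overlapped, and the fold of 1.08 had an interval from 0.792 to 1.46 (adjusted p = 0.833). Per exon length, Cd14 was 19.5, 31.2 and 50.7 times Tlr4 in MSR1 KO and 6.61, 23.6 and 6.56 times Tlr4 in MSR1 WT. This ratio was 1.64 higher in MSR1 KO on the log2 scale and that of Ly96 over Tlr4 was 1.53 higher, both with overlap (exact permutation p = 0.2 each).

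The endosomal receptors Tlr13 and Tlr8 were among the 3 genes of the group with the highest RPKM, and neither passed the adjusted threshold in the comparison of genotypes or under any of the 12 alternatives. Tlr13 had 717, 791 and 741 CPM in MSR1 KO and 630.3, 592 and 673 CPM in MSR1 WT. The groups did not overlap, and the fold was 1.19 with an interval from 1.06 to 1.33 (adjusted p = 0.104). Tlr8, which binds breakdown products of RNA, had 404, 434 and 368 CPM in MSR1 KO and 353, 351 and 355 CPM in MSR1 WT. The MSR1 WT libraries were nearly equal, all MSR1 KO libraries lay above them, and the fold was 1.14 with an interval from 1.01 to 1.28 (adjusted p = 0.213). The ratio of Tlr8 to Tlr13 differed by -0.06 on the log2 scale with overlap (exact permutation p = 0.5).

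Myd88, the adaptor used by all of these receptors, was the gene of the group that rose at the adjusted threshold. It had 91.5, 102 and 99.5 CPM in MSR1 KO and 67.2, 69.7 and 78.0 CPM in MSR1 WT, with no overlap. The log2 fold change was 0.45 ± 0.086 (SE), or 1.36-fold with an interval from 1.19 to 1.56 (adjusted p = 0.0287). Over the 12 alternatives the log2 fold change stayed between 0.40 and 0.51, while the adjusted p ranged from 0.000424 to 0.121. It was above 0.05 without MSR1 KO replicate 1, 2 or 3 and without MSR1 WT replicate 1 or 2, and it was 0.0663 with the replicate block.

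Because exons of Myd88 overlap those of Acaa1a, that gene was looked up after the values of Myd88 were seen. It had 44.2, 60.1 and 65.2 CPM in MSR1 KO and 48.1, 62.7 and 57.1 CPM in MSR1 WT, a log2 fold change of 0.01 (adjusted p = 0.976). The part of reads from the shared bases in the values of Myd88 was not tested. Of the ISRE-type matches printed above, that of Myd88 lies 40 bases before its start, and those of Tlr6, whose log2 fold change was -0.37, lie 116 and 110 bases before its start.

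Ticam1, which encodes TRIF, had 35.3, 39.9 and 35.9 CPM in MSR1 KO and 40.5, 33.9 and 38.2 CPM in MSR1 WT. The groups overlapped, and the fold of 0.987 had an interval from 0.847 to 1.15 (adjusted p = 0.944). Within each library, Ticam1 per exon length was 0.332, 0.336 and 0.311 of Myd88 in MSR1 KO and 0.518, 0.419 and 0.422 in MSR1 WT. The log2 ratio differed by -0.47 (MSR1 KO minus MSR1 WT) with no overlap (exact permutation p = 0.1).

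Other genes of the pathway were taken from 6 lists, over which edgeR called 16 genes higher and 1 lower at an adjusted p under 0.05, where 2.25% of all tested genes were called higher and 2.66% lower. At an unadjusted p under 0.05 they held 34 higher and 1 lower, but the share of all tested genes was not computed at that threshold. Of the 34, 11 were targets of the TRIF and interferon type, a list chosen with its direction already known. DESeq2 called 30 higher and 1 lower over the 6 lists after adjustment, against 727 and 850 of all 16402 genes. Without MSR1 WT replicate 1 edgeR called 0 genes of the 6 lists higher. Of the 6 other Toll-like receptors, 1 rose and 0 fell at an adjusted p under 0.05 by edgeR, with a median log2 fold change of 0.61. The one that rose was Tlr9, the receptor for unmethylated DNA, with 275, 328 and 238 CPM in MSR1 KO and 160, 142 and 189 CPM in MSR1 WT (log2 fold change 0.78, adjusted p = 0.0256). Tlr7, singled out after its values were seen as a gene of wide spread, had 227, 512 and 235 CPM in MSR1 KO and 449.9, 182 and 485 CPM in MSR1 WT. The second library of each genotype thus stood apart from the other two, in opposite directions. Of 13 receptor chaperones and accessory proteins, 2 rose and 1 fell, with a median of -0.0058. Slc15a3, an endolysosomal transporter of bacterial peptides, had a log2 fold change of 0.66 and Ly86, which encodes the MD-1 partner of the receptor-like protein RP105, one of 0.53. Cd36, a scavenger receptor that assists TLR2 with TLR6, fell by 0.32 on the log2 scale (-0.32, adjusted p = 0.0476), from between 2107 and 2415 CPM in MSR1 WT to between 1704 and 1879 CPM in MSR1 KO. With any 1 library left out, 0 genes of the 6 lists were called lower, so the call of Cd36 depended on all libraries.

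Of 24 tested genes of downstream signalling, 3 rose and 0 fell by edgeR, with a median log2 fold change of 0.14. They were Irf7 (log2 fold change 1.35) and Irf5 (0.60), which encode interferon regulatory factors activated below MyD88, and Peli1 (0.37), which encodes a ubiquitin ligase of the pathway. Of 19 negative regulators, 2 rose and 0 fell, with a median of 0.03. These were Socs1, an inhibitor of cytokine signalling (1.36), and Zfp36, which destabilizes cytokine mRNA (0.41).

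Target genes of both adaptors were counted last. Of 16 tested targets of the MyD88 type, 1 rose and 0 fell by edgeR, with a median log2 fold change of 0.24. It was Ccl4, a chemokine, with 39.5, 41.7 and 38.1 CPM in MSR1 KO and 23.5, 22.4 and 27.4 CPM in MSR1 WT (log2 fold change 0.70, adjusted p = 0.0152). Of 11 tested targets of the TRIF and interferon type, 7 rose and 0 fell, where 2.25% of all tested genes were called higher. All 11 lay above MSR1 WT in every MSR1 KO library, as 12.1% of all tested genes did, and the median was 1.27. Gbp2, an interferon-induced GTPase, had the largest value, 3.04, with 260, 598 and 67.6 CPM in MSR1 KO and 37.0, 34.3 and 41.4 CPM in MSR1 WT. Ifit2, Ifit3, Rsad2 and Isg15, which encode antiviral proteins, had log2 fold changes of 1.54, 1.54, 1.54 and 1.35. These genes answer to interferon from any source, and the list was chosen with the interferon genes already known to be higher in these libraries, so its count is no independent evidence of its direction. The ISRE-type motif occurred in the promoters of 6 of its 9 genes with an entry and of 3.46% of all genes.

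**Figure D5:**
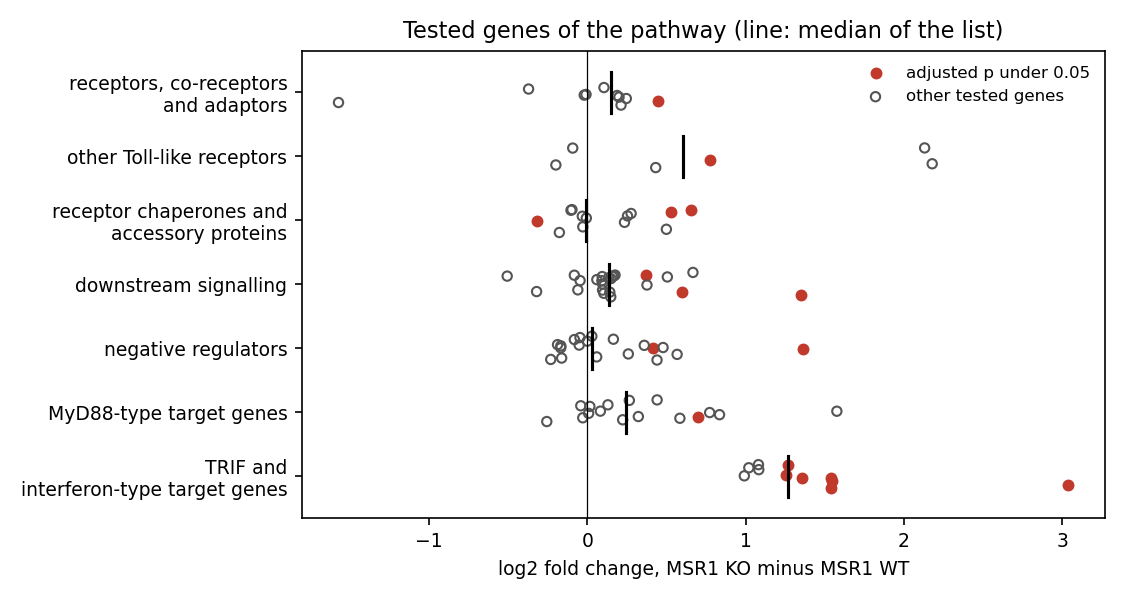
Log2 fold change, MSR1 KO minus MSR1 WT, of each tested gene of the group (top) and of 6 lists of pathway genes (filled red, adjusted p under 0.05; black line, median of the list). The group has a median of 0.15 with Tlr4 far to the left, and the TRIF and interferon-type targets have a median of 1.27 with all 11 genes right of 0.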

How the data were processed

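The authors deposited 1 table with raw counts per gene for 3 MSR1 KO and 3 MSR1 WT libraries. It also holds a deposited signal column per library, the count divided by a size factor, which was not tested, and their own log2 fold changes and p-values, which were not used. The submitters' processing notes name fastp 0.17.1, HISAT2 2.1.0, DESeq2 1.18.1 and R 3.4.3, whereas the paper's methods name TopHat and FPKM. The counting program and strand setting are not given in the sources used here. No value column lacked a sample (0 columns). Spreadsheet dates had replaced 27 symbols, of which 26 were restored, and 89 symbols were shared by several identifiers. Coordinates are those of GRCm38, in which 49909 of 52550 identifiers had the same span.

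Low counts were removed by filterByExpr, libraries were scaled by TMM, and genes were compared by the quasi-likelihood test of edgeR 4.0.16 in R 4.3.3. P-values of all 16402 tested genes were adjusted by Benjamini-Hochberg. All adjusted p-values of genes come from this fit unless another tool is named. RPKM is CPM per kilobase of merged exons in GENCODE M21. Ratios within libraries had 0.5 counts added to each gene and were compared by two-sided exact permutation tests. Genes named were the 10 members, Msr1, up to 5 called genes per pathway list, up to 3 of the most abundant per marker list and the 5 genes closest to Tlr4; others are marked. Members and lists were chosen with earlier results of these data known. The paper calls the libraries biological replicates, but the labels do not tie them to separate animals, so p-values measure the spread between these libraries. The method was tested on simulated counts. The alternatives were DESeq2 1.42.0, its size factors, library size alone, a replicate block, removal of single libraries, no filter, a filter of 10 counts per library and 1 count added in ratios.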

Additional observations from a re-analysis of the deposited data

How the results depend on the processing

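The direction of Tlr1, Tlr4, Tlr6, Tlr8, Tlr13, Cd14 and Myd88 was the same under all 12 alternatives, while Tlr2, Ly96 and Ticam1, none of them called, changed sign under some. DESeq2's test called 727 genes higher and 850 lower at an adjusted p under 0.05, against 369 and 436 by edgeR, with 30 pathway genes higher against 16. Without a count filter, 237 genes were higher and 288 lower. With the replicate block, 59 genes were higher and 78 lower, and 0 of the 10 genes were higher. Correlations of same-numbered libraries around their group means were -0.03, 0.02 and -0.005, so the numbers were not taken to pair libraries. DESeq2's test, library size alone and the stricter filter each called 1 gene of the group lower, Tlr6. With 1 library left out, counts of all genes ranged from 18 to 407 higher and from 53 to 372 lower, those of the group from 0 to 1 in each direction, and those of the pathway lists from 0 to 19 higher, with 0 lower throughout. The fewest, 18 and 53, and 0 pathway genes, came without the first MSR1 WT library. The median of the group ranged from 0.0706 to 0.162, the lowest without MSR1 KO replicate 3. The causes of these shifts were not tested. Other scalings moved the median of all genes to at most -0.034 on the log2 scale. With the ISRE-type motif 1 base shorter, chosen after seeing the data, 3 genes of the group held it instead of 2. The number of libraries limits the exact permutation tests of ratios to p = 0.1.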
